A study of Mus musculus with 21 samples.

Results

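Border zone tissue, the muscle next to an infarct, was compared between 4 mouse hearts given a Fap inhibitor and 4 hearts that lack Fap by genotype, all after myocardial infarction (MI). The members are the hearts whose titles name the border zone with FAPI or FapKO, and they make up 8 of the 21 libraries of the series. FAPI hearts were WT mice with MI plus FAPI, and FapKO hearts were mice of the FapKO genotype with MI. Another 7 hearts served as context, 4 WT hearts with MI alone and 3 WT hearts after a sham operation, and 6 libraries of cultured fibroblasts were not used. All hearts were collected at day 7 and labelled border zone. FAPI is read as a Fap inhibitor from the title of the series.

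The compound, its dose and schedule, the strain, the age, how the knockout was made, whether FapKO mice had WT littermates in the study, and whether a vehicle was given to the other groups are all not given in the labels. FAPI hearts differ from FapKO hearts in the agent and in the genotype at once, and the parts of these differences cannot be told apart. The labels do not say that each library is a separate animal, and p-values refer to the spread between libraries, which may be technical. All 8 hearts had Y-linked transcripts, with 572 to 1169 counts of Ddx3y.

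Fap encodes fibroblast activation protein, a serine protease on the surface of activated fibroblasts that cuts peptides after proline. An inhibitor blocks the enzyme and can leave its messenger RNA in place, whereas a knockout removes the gene product altogether. The protein is low in the resting heart and appears on fibroblasts of the healing infarct. The series title links its inhibition to BNP, the natriuretic peptide encoded by Nppb.

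The 8 libraries held 25798766 to 37287355 gene counts in FAPI hearts and 24519009 to 30571068 in FapKO hearts, with 23319 to 25061 genes detected. Levels are given as CPM, which are counts scaled to a common library size. The share of counts from mitochondrially encoded genes was 12% ± 1.16 in FAPI hearts and 13.7% ± 0.524 in FapKO hearts (SD, n = 4 each), a difference of −1.68 percentage points (exact permutation test over 70 assignments, two-sided p = 0.0571). On the first principal component of the 8 hearts, which held 41.5% of the variance, FAPI hearts lay at −22.7 to −11.7 and FapKO hearts at 14 to 23.3. Markers of cardiomyocytes were abundant in all 8 hearts, at a mean of 9.71 to 10.7 log2 CPM, as the labelled tissue calls for.

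Fap itself separated the groups. It had 7.75, 8.40, 10.4 and 6.47 CPM in FAPI hearts, against 2.19, 2.32, 2.36 and 1.79 CPM in FapKO hearts. These values rest on 224 to 349 counts per FAPI heart and 46 to 68 counts per FapKO heart, so a low level of reads assigned to Fap remained in every FapKO heart. No FAPI heart overlapped with a FapKO heart, and the difference was 1.93 on the log2 scale (SE 0.16, adjusted p = 1.98e-06 by the quasi-likelihood F test of edgeR, adjusted over all genes after Benjamini and Hochberg). The gene (ENSMUSG00000000392.17) lies on the minus strand of chromosome 2 from 62500943 to 62574075 in mm10, and counts per whole gene do not show whether the remaining reads fall in a deleted part. MI hearts had 11.2 ± 1.57 CPM (SD, n = 4) and sham hearts 3.32 ± 0.578 CPM (SD, n = 3). Dpp4, a related dipeptidyl peptidase gene beside Fap, had 3.20, 1.13, 2.15 and 1.47 CPM in FAPI hearts, against 0.816, 0.920, 0.958 and 1.75 CPM in FapKO hearts. The groups overlapped and Dpp4 did not pass the test (log2 fold change 0.84, SE 0.32, adjusted p = 0.088), though it did without FAPI replicate 2 or FapKO replicate 4 (adjusted p = 0.0409 and 0.0356).

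Inhibitor and knockout hearts differed widely. Of 17064 genes tested, 2247 passed an adjusted p of 0.05 (13.2%), 1203 of them higher in FAPI hearts (7.05%) and 1044 lower (6.12%). Of these, 552 differed at least by 1 on the log2 scale, 266 higher and 286 lower. Total-count scaling in place of TMM scaling moved the split to 1573 higher (9.22%) and 745 lower (4.37%) of 2318 calls (13.6%), a share of higher calls of 67.9% against 53.5%. The total-count scaling gave a median log2 fold change of all genes of 0.16, against 0.02 with TMM, so fold changes of lists are to be read against 0.02. Leaving out FAPI replicate 1, FAPI replicate 3, FapKO replicate 1 or FapKO replicate 3 lowered the number of calls to 1352, 1197, 1430 and 1125 in that order.

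The genes with the largest differences among well expressed genes without overlap between the groups fell into a few kinds. The absence of overlap was a condition of both sets below, so their separation is not a result. With predicted genes (Gm or Rik names) and genes that overlapped left aside, the 12 highest were Hspa1a, Spp1, Ms4a4c, Ifi213, Slfn1, Irf7, Ifit1, Zbp1, Ifi209, C1qtnf3, Usp18 and Ifit3. Of these, at least 8 are known to be induced by interferon (Ifi213, Slfn1, Irf7, Ifit1, Zbp1, Ifi209, Usp18 and Ifit3). The log2 fold changes of these 8 ran from 1.63 to 1.93. C1qtnf3, a secreted protein gene, gave 1.67 and did not pass without FAPI replicate 2, FAPI replicate 3, FapKO replicate 3 or FapKO replicate 4 (adjusted p 0.057 to 0.0709). With predicted genes and genes that overlapped again left aside, the 12 lowest were Ucp3, Car4, Aqp7, Ces1d, Acot1, Rpl3l, Fbp2, Pkd2l2, Pdp2, Adh1, Acot2 and Ttll1. Several of these act in fuel use of muscle: Ucp3 is a mitochondrial carrier, Acot1 and Acot2 are acyl-CoA thioesterases, Pdp2 is a pyruvate dehydrogenase phosphatase and Fbp2 is the muscle fructose bisphosphatase. Their log2 fold changes ran from −2.60 to −1.48. Adipoq, described below, fell by more than most of the 12 lowest and was left out because the groups overlapped.

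**Figure D1:**
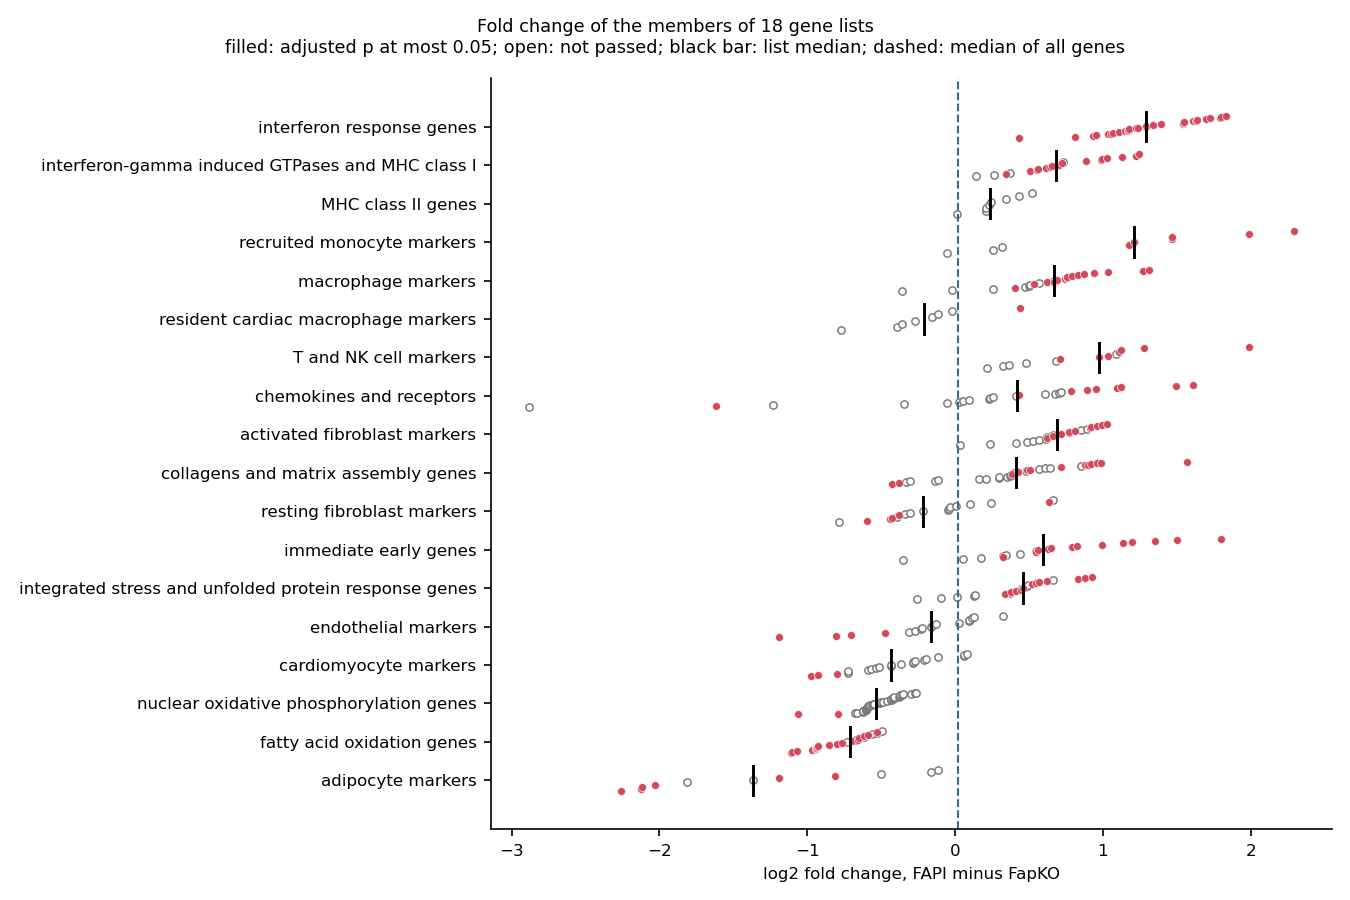
Log2 fold change of FAPI over FapKO hearts (x axis) for each tested member of 18 gene lists (y axis). Filled points passed an adjusted p of 0.05, open points did not, black bars are list medians and the dashed line is the median of all genes, 0.02; all 29 interferon response genes lie to the right and all 24 fatty acid oxidation genes to the left.

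Interferon response genes were higher in FAPI hearts throughout. Interferons are signalling proteins that bind surface receptors, signal to the nucleus, and switch on a large set of antiviral genes. Of 30 listed genes 29 could be tested, and all 29 rose in FAPI hearts, by 1.29 on the log2 scale at the median and by 0.43 to 1.83 over the list. The smallest was that of Rsad2, whose call was lost without any 1 of 7 of the 8 hearts (adjusted p 0.0507 to 0.137). None of the 29 overlapped between the 4 and 4 hearts, whereas 18.6% of all genes were without overlap, 9.77% in that direction.

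Many such genes carry a pair of GAAA blocks near their start, letters to which IRF factors bind. The motif GAAANNGAAA was searched on both strands (TTTCNNTTTC in reverse), with overlapping matches allowed, in the RefSeq promoter table (GRCm38.p6, 250 bases before to 50 after the start). It was present in 12 of the 21 interferon response genes with a promoter in the table (57.1%), against 379 of 11795 genes tested (3.21%) and 943 of 27025 promoters in all (3.49%). Among genes called higher it was in 96 of 890 promoters (10.8%), and among genes called lower in 17 of 751 (2.26%). The promoters below show this for 5 genes of the list that were chosen after their values were seen, as the 130 bases that end just before the start, with the motif in capitals.

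Isg15: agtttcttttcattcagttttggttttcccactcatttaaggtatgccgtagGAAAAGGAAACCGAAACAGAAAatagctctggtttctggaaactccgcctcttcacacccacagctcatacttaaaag
Ifit1: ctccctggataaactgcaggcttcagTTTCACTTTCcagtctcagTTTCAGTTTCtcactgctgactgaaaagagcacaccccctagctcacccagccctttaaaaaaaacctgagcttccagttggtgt
Bst2: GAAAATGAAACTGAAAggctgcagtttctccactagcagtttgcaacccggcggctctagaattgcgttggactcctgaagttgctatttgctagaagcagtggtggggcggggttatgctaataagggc
Oas3: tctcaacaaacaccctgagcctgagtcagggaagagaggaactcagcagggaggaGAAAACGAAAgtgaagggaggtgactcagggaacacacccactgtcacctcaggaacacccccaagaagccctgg
Irf7: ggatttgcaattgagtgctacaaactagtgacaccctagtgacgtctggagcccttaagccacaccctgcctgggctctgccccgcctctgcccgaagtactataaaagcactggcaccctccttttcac

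Isg15 (chr4:156200819-156200948, minus strand), which encodes a ubiquitin-like protein, holds 3 overlapping matches. Ifit1 (chr19:34640759-34640888, plus strand), which encodes a protein that binds foreign RNA, holds 2 on the other strand. Bst2 (chr8:71537473-71537602, minus strand), which encodes tetherin, holds 2, and Oas3 (chr5:120777660-120777789, minus strand), an oligoadenylate synthetase gene, holds 1. Irf7 (chr7:141266425-141266554, minus strand), the transcription factor gene that amplifies the response, holds none, which says only that these letters are not in this window. A match is a description of the sequence and not a measured binding site.

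Each of these genes separated the hearts, as all 29 tested members of the list did. For Irf7 and Ifit1 this was also a condition of their place among the 12 highest genes. Irf7 had 105, 112, 90.8 and 82.8 CPM in FAPI hearts, against 30.9, 27.6, 25.5 and 26 CPM in FapKO hearts (log2 fold change 1.83, SE 0.11, adjusted p = 6.34e-08). Isg15 had 68.7, 81.4, 60.8 and 49.7 CPM in FAPI hearts, against 25.5, 22.5, 22.4 and 18.6 CPM in FapKO hearts (1.55, SE 0.15, adjusted p = 7.54e-06). FAPI replicate 4 was the lowest FAPI heart for both genes and still lay above every FapKO heart. Ifit1 had 83.8, 77.5, 87.4 and 60.5 CPM in FAPI hearts, against 24.5, 23, 19.9 and 22 CPM in FapKO hearts (1.79, SE 0.14, adjusted p = 8.03e-07). Oas3 averaged 3.87 ± 0.788 CPM in FAPI hearts and 1.11 ± 0.270 CPM in FapKO hearts, and Bst2 averaged 199 ± 25 and 96.1 ± 6.26 CPM in the same groups (SD, n = 4 each). Their log2 fold changes were 1.80 and 1.05.

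Regulators and sensors of the response moved with its effectors. Usp18, the protease that removes Isg15 from proteins and damps interferon signalling, was among the tightest, with 52.8, 56, 54 and 53.9 CPM in FAPI hearts against 17.3, 17.9, 18.9 and 15.7 CPM in FapKO hearts (1.63, SE 0.11, adjusted p = 2.17e-07). Zbp1, a sensor of Z-form nucleic acids, had 33.3, 32.8, 35.2 and 30.2 CPM in FAPI hearts against 8.63, 10.8, 9.51 and 10.8 CPM in FapKO hearts (1.73, SE 0.10, adjusted p = 6.11e-08). For both genes the spread within a group was small beside the distance between groups. Ifih1, which encodes the RNA sensor MDA5 and lies next to Fap, averaged 14.8 ± 0.595 CPM in FAPI hearts and 6.67 ± 0.619 CPM in FapKO hearts (SD, n = 4 each; 1.15, SE 0.09, adjusted p = 1.51e-06). It is named here after its values were seen.

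Set beside the other hearts, FapKO hearts lay near sham and FAPI hearts near MI alone for these genes. The mean log2 CPM of the 29 genes was 4.94 to 5.21 in FAPI hearts, 3.77 to 3.88 in FapKO hearts, 5.31 to 5.57 in MI hearts and 3.6 to 3.81 in sham hearts. FapKO hearts thus overlapped with sham hearts, and FAPI hearts stayed below all MI hearts. Genes of the interferon-gamma response and of MHC class I, which present peptides to T cells, had 16 of 20 members higher. That is 80% called, against 13.2% of all genes, and the list median was 0.68. An example is Irgm1, an immunity-related GTPase gene, with 42.1, 41.6, 43.8 and 28.6 CPM in FAPI hearts against 18.8, 18, 12.2 and 17.7 CPM in FapKO hearts. None of 8 MHC class II genes passed, but 5 did, all higher, without FapKO replicate 2 and 1 without FAPI replicate 4.

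**Figure D2:**
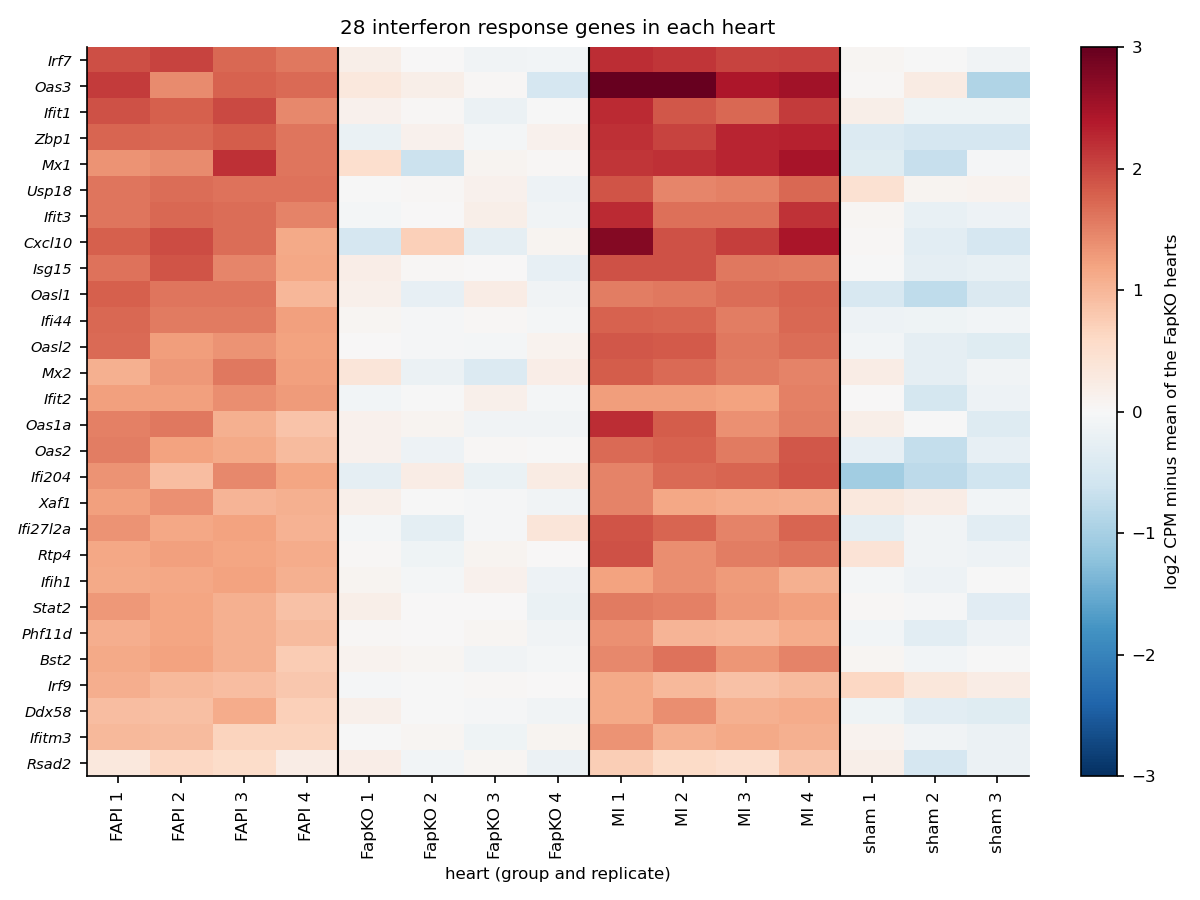
Each of the 28 rows is an interferon response gene of the 29 tested and each column a heart, with FAPI, FapKO, MI and sham hearts from left to right. Colour gives log2 CPM minus the mean of the FapKO hearts; the rows are red in the 4 FAPI and 4 MI hearts, faintly so for Rsad2, and pale in the FapKO and sham hearts.

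Macrophage markers moved in the same direction, and their values stand beside the interferon result for that reason. In bulk tissue, fewer cells of a type and less RNA per cell cannot be told apart. Of 23 macrophage markers 15 rose in FAPI hearts and none fell (65.2% called, against 13.2% of all genes), with a median of 0.67. None of the 23 was at 0 in these hearts. Their summed level was 7965 to 13560 CPM in FAPI hearts, 4405 to 8358 CPM in FapKO hearts, 12147 to 17785 CPM in MI hearts and 3128 to 3449 CPM in sham hearts. When the level of these markers in a heart was added to the fit, 61 genes of all tested still passed (0.357%), 47 higher (0.275%) and 14 lower (0.082%). In that fit, 19 of the 29 interferon response genes passed, with a median of 1.25. Of the 20 interferon-gamma and MHC class I genes 4 passed, and Irgm1 did not (adjusted p = 0.213). It left 1 of the 23 macrophage markers (Fcgr1) and 1 of 9 recruited monocyte markers (Ms4a4c). Whether these calls belong with the cell markers or with the interferon response was not tested. The covariate is the mean of these same 23 markers, so the loss of their own calls is built in. Ccr2 stands in both of these lists. No member passed in that fit of the T and NK cell, chemokine, scar macrophage, natriuretic peptide, endothelial or adipocyte lists. Medians of these lists ran from −2.25 (adipocyte) to 0.26 (T and NK cell). With the level of 21 cardiomyocyte markers as the covariate, 1530 genes passed (8.97%), 897 higher (5.26%) and 633 lower (3.71%), and 28 of the 29 interferon response genes were among those higher.

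Markers within the myeloid lists did not move alike. Of 8 tested markers of resident cardiac macrophages 7 had negative fold changes, with a list median of −0.21, and none fell. The one that rose was Gas6 (0.44, adjusted p = 0.0446), named after its values were seen, and no marker rose without FAPI replicate 1, 2 or 3 or FapKO replicate 1, 3 or 4. Fcgr1, the high-affinity IgG receptor gene of monocytes and macrophages, had 31.7, 29.6, 41.4 and 29.1 CPM in FAPI hearts against 12.9, 15.7, 11.6 and 13 CPM in FapKO hearts (1.31, SE 0.14, adjusted p = 2.27e-05). Adgre1, which encodes the macrophage surface protein F4/80, had 37, 30.4, 47.1 and 30.9 CPM in FAPI hearts against 19.5, 23, 15.2 and 18.3 CPM in FapKO hearts (0.94, SE 0.15, adjusted p = 6.71e-04). Neither overlapped between groups. Cd68, a lysosomal macrophage protein gene, had 132, 144, 202 and 105 CPM in FAPI hearts against 112, 132, 62.9 and 86.1 CPM in FapKO hearts, which overlapped (0.57, SE 0.27, adjusted p = 0.174).

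Of 9 recruited monocyte markers 6 rose and none fell (66.7% called, against 13.2% of all genes), with a median of 1.21. Without FAPI replicate 1, FAPI replicate 3, FapKO replicate 1 or FapKO replicate 3 the count was 3 of 9 each time. Ms4a4c, a membrane protein gene of monocytes, had 33.8, 38.2, 49.7 and 44.3 CPM in FAPI hearts against 10.8, 10.1, 10.1 and 10.9 CPM in FapKO hearts (1.99, SE 0.16, adjusted p = 1e-06). Plac8 had 81.6, 62.5, 65.8 and 40.2 CPM in FAPI hearts against 21, 26.7, 16.6 and 26.2 CPM in FapKO hearts (1.47, SE 0.19, adjusted p = 1.51e-04). Both genes separated all 8 hearts, which for Ms4a4c was a condition of its place among the 12 highest genes. Ccr2, the chemokine receptor that monocytes use to leave the marrow, had 14.3, 10.7, 23.4 and 14.5 CPM in FAPI hearts against 11, 15.7, 12.1 and 13.8 CPM in FapKO hearts and did not pass (0.26, SE 0.21, adjusted p = 0.441).

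Spp1, which encodes osteopontin and marks scar macrophages, had 523, 672, 4558 and 1287 CPM in FAPI hearts against 419.6, 453, 215 and 311 CPM in FapKO hearts. The groups did not overlap, but FAPI replicate 3 was far above the rest. The difference was 2.33 on the log2 scale (SE 0.56, adjusted p = 0.012), and without FAPI replicate 3 it was 1.24 and did not pass (adjusted p = 0.0566). Of 12 lipid-associated scar macrophage markers, which include Spp1, 5 rose and none fell (41.7% called, against 13.2% of all genes). The count was 0 without FAPI replicate 3, 2 without FapKO replicate 1 and 1 without FapKO replicate 3 or FapKO replicate 4, and without FAPI replicate 4 it was 7, with 1 lower.

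Lymphocyte and chemokine genes were partly higher, while other blood cell lists showed few calls. Of 13 T and NK cell markers 7 rose (53.8% called, against 13.2% of all genes), with a median of 0.97. Nkg7, a granule gene of cytotoxic cells, had 12.8, 11, 15.1 and 11.8 CPM in FAPI hearts against 5.02, 7.97, 7.37 and 5.42 CPM in FapKO hearts (0.97, SE 0.22, adjusted p = 0.00817). Of 24 chemokine and receptor genes 8 rose and 1 fell (37.5% called), with a median of 0.42, and 2 fell without FapKO replicate 1. Among ligands, Ccl12 had 93.3, 111, 123 and 151 CPM in FAPI hearts against 40.1, 50.1, 44.8 and 34.7 CPM in FapKO hearts (1.49, SE 0.19, adjusted p = 1.04e-04). Cxcl10, an interferon-induced ligand that draws T cells, had 6.41, 7.19, 5.95 and 4.07 CPM in FAPI hearts against 1.24, 3.00, 1.47 and 1.91 CPM in FapKO hearts (1.61, SE 0.26, adjusted p = 8.76e-04). All 8 hearts were separated by each of these 3 genes. The chemokine that fell was Ccl11, the eosinophil chemokine, at 0.782 ± 0.0847 CPM in FAPI hearts and 2.41 ± 0.609 CPM in FapKO hearts (SD, n = 4 each; −1.62, SE 0.35, adjusted p = 0.00655), named after its values were seen. Of 12 neutrophil markers Lcn2 alone rose (1.38, SE 0.36, adjusted p = 0.0191), a call lost without FAPI replicate 1 or FapKO replicate 1, 2 or 3 (adjusted p 0.0501 to 0.0631), and none passed among 11 B cell, 6 mast cell or 8 dendritic cell markers. Of the dendritic cell markers 2 were higher without FapKO replicate 2 and 1 without FAPI replicate 2 or FAPI replicate 4, and 1 B cell marker was lower without FapKO replicate 1.

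Genes of scar formation were higher in FAPI hearts in part of each list. After an infarct, resting fibroblasts turn into matrix-producing cells that secrete collagen and the proteins that organise it. Of 22 activated fibroblast markers 11 rose against FapKO hearts and none fell, with a median of 0.69. Their level was 6.39 to 7.02 log2 CPM in FAPI hearts and 6.05 to 6.2 in FapKO hearts. It was 6.76 to 7.26 in MI hearts and 4.40 to 4.74 in sham hearts. The proteoglycan and matricellular list had 13 of 25 members higher (8 without FAPI replicate 3), with a median of 0.58. Collagen and matrix assembly genes had 11 of 32 higher and 2 lower, with a median of 0.41, and 20 were higher without FAPI replicate 4. The number lower was 0 or 1 without any 1 heart other than FapKO replicate 2. Of 23 genes of TGF-beta, activin and BMP signalling 10 rose (6 without FapKO replicate 3), and 1 fell without FAPI replicate 4 or FapKO replicate 2. The share called in these 4 lists was 50%, 52%, 40.6% and 43.5% in that order, against 13.2% of all genes. None of the members of these 4 lists passed with the macrophage marker covariate, with which 0.357% of all genes passed. Their medians in that fit stayed positive, at 0.48 for activated fibroblast, 0.39 for matricellular, 0.30 for collagen and 0.29 for TGF-beta genes. For Postn the difference was 0.89 (SE 0.30) in that fit, against 0.91 (SE 0.18) without the covariate.

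Postn, the periostin gene of activated fibroblasts, had 1331, 1299, 1080.1 and 867 CPM in FAPI hearts against 589.6, 588, 589 and 663 CPM in FapKO hearts. All FAPI hearts were higher (0.91, SE 0.18, adjusted p = 0.00324). Cthrc1, a secreted protein gene of scar fibroblasts, had 859, 694, 704 and 463 CPM in FAPI hearts against 285, 445, 283 and 319 CPM in FapKO hearts (1.03, SE 0.25, adjusted p = 0.012). FAPI replicate 4 lay close to FapKO replicate 2 for this gene. Lox, the lysyl oxidase gene whose product cross-links collagen, had 198, 179.8, 249 and 173 CPM in FAPI hearts against 98.3, 119, 83.9 and 109 CPM in FapKO hearts (0.96, SE 0.15, adjusted p = 8.20e-04).

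The main fibrillar collagens did not pass with all hearts. Col1a1 had 3208, 3103, 2789.5 and 1478 CPM in FAPI hearts against 2057, 1921, 1397 and 1762 CPM in FapKO hearts, which overlapped through FAPI replicate 4 (0.57, SE 0.24, adjusted p = 0.128). Col3a1 differed by 0.35 (SE 0.15, adjusted p = 0.115). Without FAPI replicate 4 both passed, at 0.77 for Col1a1 (adjusted p = 0.0215) and 0.46 for Col3a1 (adjusted p = 0.0357), and Col3a1 also passed with DESeq2 (adjusted p = 0.043). Both are among the reported substrates of Fap, none of whose 6 tested members passed, against 3 without FAPI replicate 4 and 1 without FapKO replicate 4. Col11a1, a minor fibrillar collagen gene, had 43.3, 63.8, 84.6 and 31.9 CPM in FAPI hearts against 23.1, 20, 14.3 and 17.9 CPM in FapKO hearts (1.57, SE 0.28, adjusted p = 0.00178).

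Signals and inhibitors around the matrix followed. Inhba, which encodes an activin subunit, rose by 1.12 (SE 0.21, adjusted p = 0.00277) and Ccn2, the connective tissue growth factor gene, by 0.91 (SE 0.16, adjusted p = 0.00171). Thbs1, the thrombospondin gene that also stands in the monocyte list, rose by 1.21 (SE 0.22, adjusted p = 0.0021). Of 23 metalloproteinases and their inhibitors 7 rose and 1 fell (34.8% called, against 13.2% of all genes). The number higher was 4 without FAPI replicate 3 or FapKO replicate 1. Timp1, an inhibitor gene of the healing infarct, had 274, 246, 256 and 203 CPM in FAPI hearts against 108, 134, 147 and 152 CPM in FapKO hearts, and Timp4, an inhibitor gene of healthy heart muscle, had 11.2, 17.5, 9.09 and 23.8 CPM against 38.6, 33.5, 35.9 and 28.5 CPM in the same groups. The pair moved in opposite directions, by 0.86 (SE 0.15, adjusted p = 0.00201) and by −1.15 (SE 0.25, adjusted p = 0.00749). Of 17 resting fibroblast markers 4 fell, among them Gsn (gelsolin, −0.59), and 1 rose. The number lower was 1 without FAPI replicate 1, FAPI replicate 3 or FapKO replicate 1, 2 without FAPI replicate 2 and 0 of 16 without FapKO replicate 3. Gsn was then at −0.45 (adjusted p = 0.0516), and the number higher was 2 without FAPI replicate 2 and 0 without any 1 of the other hearts except FapKO replicate 2.

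**Figure D3:**
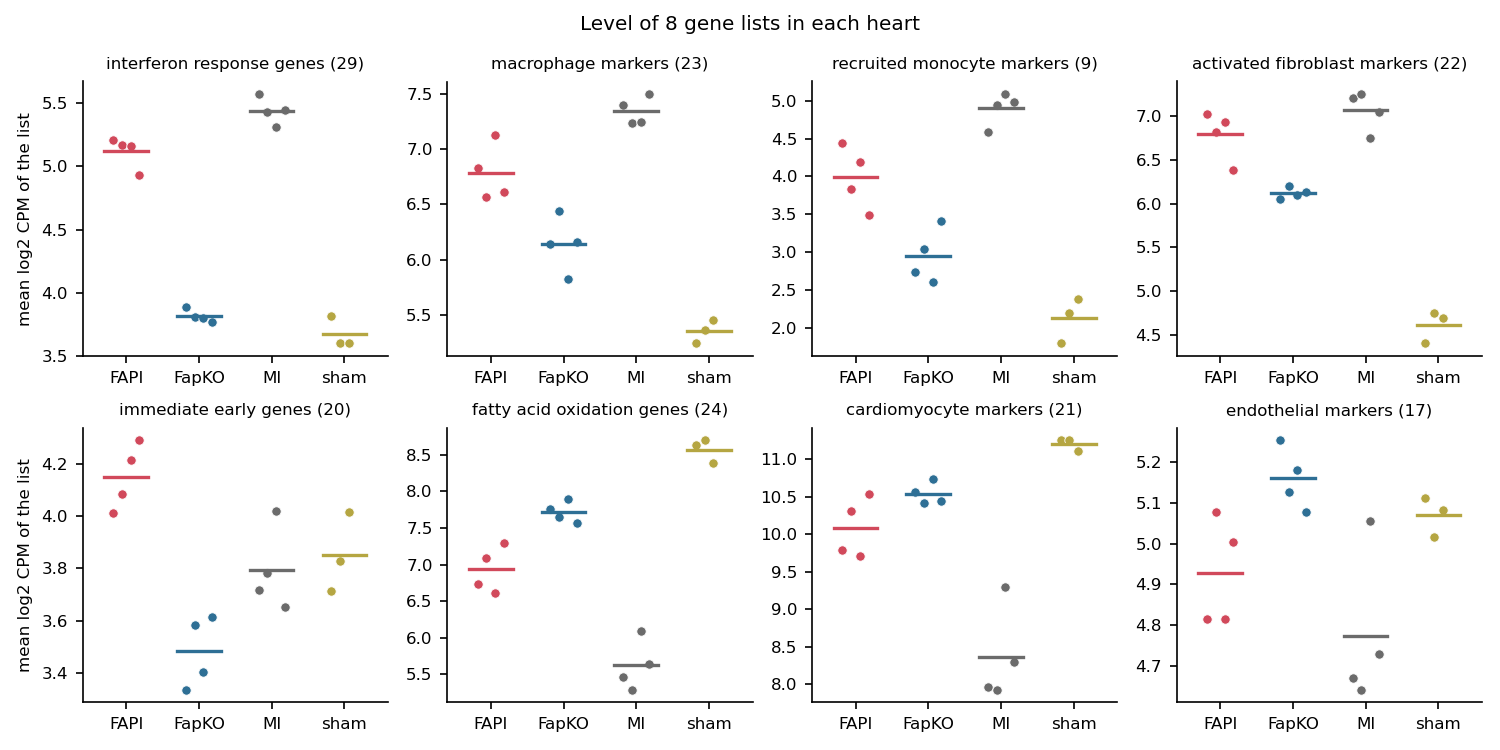
Mean log2 CPM (y axis) of 8 gene lists in each heart (points) of the FAPI, FapKO, MI and sham groups, with group means as bars and the number of members tested in each title. FAPI hearts lie at 4.94 to 5.21 and FapKO hearts at 3.77 to 3.88 for interferon response genes, and at 6.61 to 7.29 against 7.57 to 7.90 for fatty acid oxidation genes. For the latter list MI hearts lie at 5.28 to 6.10 and sham hearts at 8.38 to 8.70.

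Immediate early genes, which cells switch on within minutes of a stimulus, were higher in FAPI hearts. Of 20 members 13 rose and none fell (65% called, against 13.2% of all genes), with a median of 0.60. The count was 7 without FapKO replicate 1, 8 without FapKO replicate 3 and 1 with the macrophage marker covariate (median 0.69). Their level was 4.01 to 4.29 log2 CPM in FAPI hearts, 3.33 to 3.61 in FapKO hearts, 3.65 to 4.02 in MI hearts and 3.71 to 4.01 in sham hearts, so FapKO hearts were the lowest group. Fos had 18.4, 13.7, 34.8 and 21.1 CPM in FAPI hearts against 4.98, 8.93, 6.45 and 10.8 CPM in FapKO hearts (1.5, SE 0.27, adjusted p = 0.00207). Myc had 13.7, 14.8, 14.3 and 13.4 CPM in FAPI hearts against 6.48, 8.28, 5.82 and 7.57 CPM in FapKO hearts (0.99, SE 0.10, adjusted p = 1.87e-05). FAPI hearts spread more for Fos than for Myc, and neither gene overlapped between groups. Such genes also respond to handling of tissue, and the labels do not give the hour of collection.

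With predicted genes and genes that overlapped left aside, the largest rise among well expressed genes was that of Hspa1a, an inducible heat shock protein 70 gene. It had 9.75, 10.4, 14.9 and 11.4 CPM in FAPI hearts against 1.59, 2.21, 2.06 and 2.34 CPM in FapKO hearts (2.5, SE 0.31, adjusted p = 9.92e-05). The means were 3.92 ± 1.43 CPM in MI hearts (SD, n = 4) and 7.18 ± 3.72 CPM in sham hearts (SD, n = 3), so the FAPI mean was above and the FapKO mean below both. Hspa1a has a near-identical neighbour, Hspa1b, and reads of the pair can be split between them. Of 23 genes of the integrated stress and unfolded protein responses 12 rose and none fell, with a median of 0.46. That is 52.2% called, against 13.2% of all genes. The count was 4 without FAPI replicate 1, 7 without FAPI replicate 2 and 6 without FapKO replicate 1 or FapKO replicate 3. It was 0 with the macrophage marker covariate (median 0.23). Manf, a stress-induced secreted protein gene, rose by 0.83 (SE 0.16, adjusted p = 0.00312) and Atf4, the transcription factor gene of the integrated stress response, by 0.46 (SE 0.10, adjusted p = 0.00975).

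Genes of fatty acid oxidation were lower in FAPI hearts. The adult heart draws most of its energy from this pathway, in which fatty acids enter mitochondria through carnitine and are shortened step by step. Of 25 listed genes 24 could be tested, all 24 had negative fold changes against FapKO hearts and 17 fell, with a median of −0.71. That is 70.8% called, against 13.2% of all genes. The list level was 6.61 to 7.29 log2 CPM in FAPI hearts and 7.57 to 7.90 in FapKO hearts. It was 5.28 to 6.10 in MI hearts and 8.38 to 8.70 in sham hearts, so FAPI hearts lay above all MI hearts. The number that fell was 10 without FAPI replicate 1, 9 without FAPI replicate 3, 11 without FapKO replicate 1 and 9 without FapKO replicate 3. With all hearts the groups did not overlap for 19 of the 24, against 8.88% of all genes in that direction. Cpt1b, the muscle entry enzyme, was at 0.0365 to 0.307 CPM and was not tested; a read-through gene covers it in the annotation used here, and reads shared by both can go uncounted. Cpt2, the enzyme that follows it, had 52.8, 68.6, 40.5 and 68.9 CPM in FAPI hearts against 114, 93.2, 132 and 99.3 CPM in FapKO hearts (−0.93, SE 0.18, adjusted p = 0.00282). Acaa2, the thiolase of the last step, had 288, 421, 311 and 524 CPM in FAPI hearts against 916, 775, 986 and 654 CPM in FapKO hearts (−1.11, SE 0.21, adjusted p = 0.00278). Eci1 and Hadh, which encode an isomerase and a dehydrogenase of the pathway, fell by 1.10 and by 0.94 on the log2 scale. No FAPI heart reached the lowest FapKO heart for these 4 genes.

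Among 21 cardiomyocyte markers 3 were lower (Pln, Atp2a2 and Ckm), with a median of −0.43. The share called was 14.3%, close to the 13.2% of all genes. The level of these markers moved in the same direction as the fatty acid oxidation genes. It was 9.71 to 10.5 log2 CPM in FAPI hearts and 10.4 to 10.7 in FapKO hearts, which overlapped. With that level as a covariate, 15 of the 24 fatty acid oxidation genes were still lower, and none was with the macrophage marker level. Tnnt2, the cardiac troponin T gene, had 9911, 13904, 10761 and 18493 CPM in FAPI hearts against 12223, 11975, 14370 and 11695 CPM in FapKO hearts (0.08, SE 0.30, adjusted p = 0.895). With the cardiomyocyte marker covariate it gave 0.54 and passed (adjusted p = 0.00402). Tnnt2 is itself in that covariate, so this describes its place against the mean of its own list. Atp2a2, the calcium pump gene of the sarcoplasmic reticulum, had 395, 622, 309.7 and 563 CPM in FAPI hearts against 1036, 699.5, 1179 and 807 CPM in FapKO hearts (−0.98, SE 0.24, adjusted p = 0.0125), and without FapKO replicate 3 it did not pass (adjusted p = 0.0518). Myh6, the adult heavy chain gene, did not pass (−0.73, SE 0.29, adjusted p = 0.102, and 0.0285 without the filter on low counts). Of 40 nuclear genes of oxidative phosphorylation all had negative fold changes (median −0.53) and 2 fell, Cox7a1 and Ndufab1 (5%, against 13.2% of all genes called). Without FAPI replicate 4, 18 fell, and 1 fell without FAPI replicate 1, FAPI replicate 3, FapKO replicate 1 or FapKO replicate 3.

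Among the 12 lowest genes, Ucp3 had 1.90, 3.40, 0.867 and 1.18 CPM in FAPI hearts against 11.5, 9.27, 11.9 and 11 CPM in FapKO hearts (−2.60, SE 0.28, adjusted p = 2.40e-05). FapKO hearts were also above sham for Ucp3, whose mean there was 6.47 ± 1.15 CPM (SD, n = 3). Acot1 had 2.65, 2.89, 3.14 and 3.00 CPM in FAPI hearts against 14.1, 9.84, 15.3 and 7.33 CPM in FapKO hearts (−1.99, SE 0.18, adjusted p = 5.60e-06). Pdp2 had 19, 24.3, 20.3 and 20.6 CPM in FAPI hearts against 68.3, 50.2, 72.7 and 53.3 CPM in FapKO hearts (−1.54, SE 0.12, adjusted p = 1.51e-06). FAPI hearts were tightly grouped for both genes, and FapKO replicates 1 and 3 were the highest. Aqp7, the glycerol channel gene, fell by 2.16 on the log2 scale (SE 0.18, adjusted p = 1.98e-06), and Aqp7, Acot1 and Pdp2 were among the 14 genes still lower with the macrophage marker covariate.

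**Figure D4:**
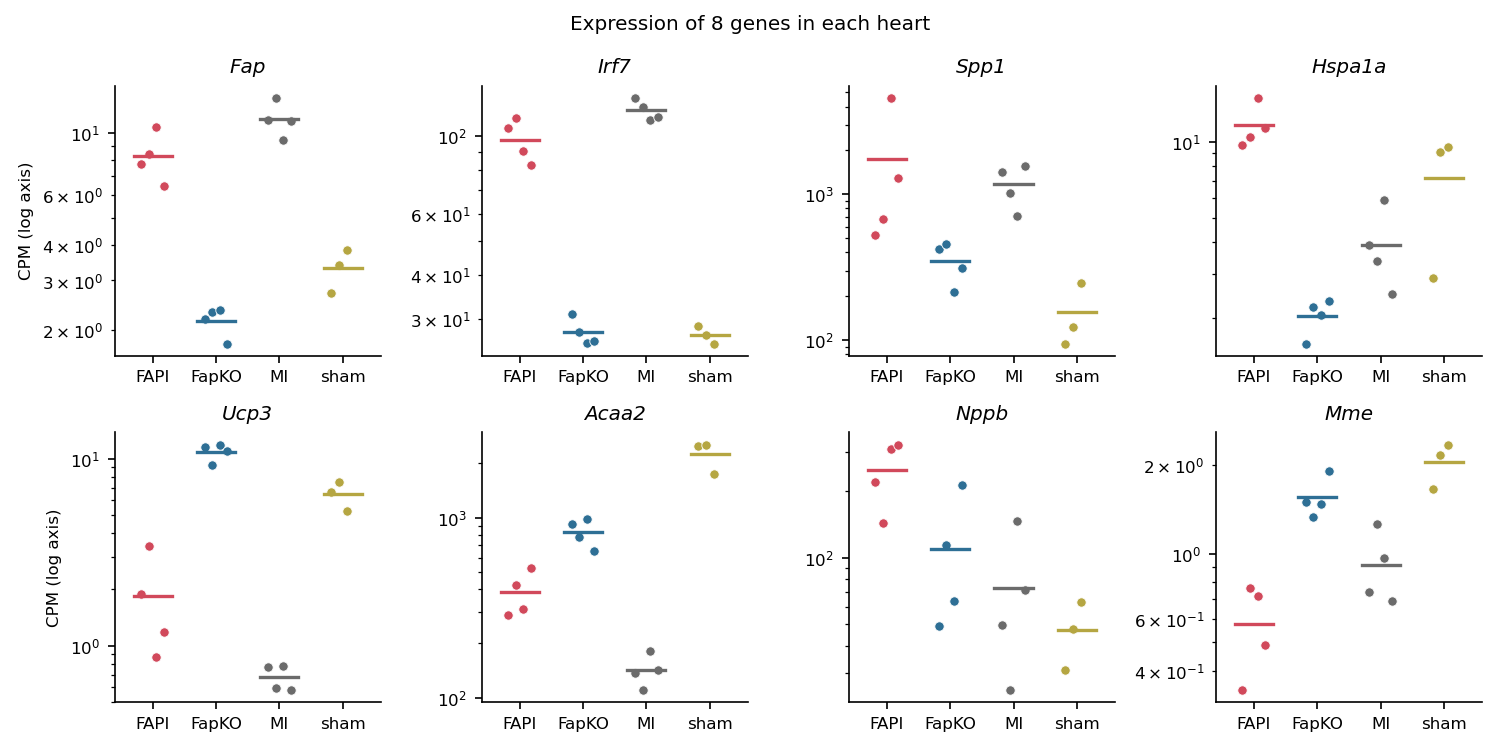
CPM (log axis) of 8 genes in each heart (points) of the FAPI, FapKO, MI and sham groups, with group means as bars. Hspa1a lies at 9.75 to 14.9 CPM in FAPI hearts against 1.59 to 2.34 CPM in FapKO hearts, while Nppb overlaps between these groups.

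Natriuretic peptides were read because the series title names BNP. They are hormones of stretched heart muscle that act through guanylyl cyclase receptors and are degraded by neprilysin. Of 17 genes of this pathway 1 rose and 1 fell, with a median of 0.23, so that 11.8% were called, against 13.2% of all genes. Without FAPI replicate 3, FAPI replicate 4 or FapKO replicate 4, 2 rose. Nppb had 219.98, 144, 310.1 and 325 CPM in FAPI hearts against 49.3, 114, 63.9 and 213 CPM in FapKO hearts. FapKO replicate 4 lay within the range of the FAPI hearts, and Nppb did not pass (1.18, SE 0.48, adjusted p = 0.115). Without FapKO replicate 4 the difference was 1.72 (adjusted p = 0.0334), and without the filter on low counts it was 1.19 and passed (adjusted p = 0.00527). Set against MI hearts (73.4 ± 52.4 CPM), Nppb gave 1.77 in FAPI hearts (adjusted p = 0.013) and 0.59 in FapKO hearts (adjusted p = 0.32), 2 comparisons that share the MI hearts and in which 29.8% and 51% of all genes passed.

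Nppa, the atrial peptide gene, had 1149, 1294, 533 and 833 CPM in FAPI hearts against 729.9, 773, 626 and 583 CPM in FapKO hearts and did not pass (0.49, SE 0.29, adjusted p = 0.268). The receptor genes Npr1, which signals, and Npr3, which clears the peptides, gave −0.34 (SE 0.19, adjusted p = 0.248) and 0.09 (SE 0.27, adjusted p = 0.86). Mme, which encodes neprilysin, was low and had 0.345, 0.767, 0.718 and 0.491 CPM in FAPI hearts against 1.5, 1.33, 1.47 and 1.91 CPM in FapKO hearts. All FAPI hearts were below all FapKO hearts (−1.41, SE 0.26, adjusted p = 0.0022). Messenger RNA levels do not show the amount or stability of the BNP peptide.

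Vessel genes moved for some markers. Of 17 endothelial markers 4 fell and none rose (23.5% called, against 13.2% of all genes), with a median of −0.16. Cldn5, a tight junction gene, had 32.8, 31.1, 30 and 35.2 CPM in FAPI hearts against 51.9, 63.4, 60 and 50.7 CPM in FapKO hearts (−0.81, SE 0.15, adjusted p = 0.0021). Kdr, the main VEGF receptor gene, had 11.9, 15.9, 11.3 and 14.4 CPM in FAPI hearts against 24.5, 18, 24.6 and 20.2 CPM in FapKO hearts (−0.71, SE 0.15, adjusted p = 0.0058). Cdh5, the VE-cadherin gene, and Fabp4, a fatty acid binding protein gene of capillaries and fat, fell by 0.47 and by 1.19 on the log2 scale. Pecam1, a pan-endothelial gene, had 32.9, 36.6, 31.1 and 34.1 CPM in FAPI hearts against 35.8, 35.2, 29.6 and 32 CPM in FapKO hearts (0.02, SE 0.09, adjusted p = 0.897). Aplnr, the apelin receptor gene of sprouting vessels, fell by 0.98 (SE 0.13, adjusted p = 2.40e-04).

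Some calls of fat genes rested on single hearts. Of 11 adipocyte markers 6 fell (54.5% called, against 13.2% of all genes), and 3 to 8 did so without each heart in turn. The number was 3 without FAPI replicate 1 or without FapKO replicate 4. Adipoq, the adiponectin gene, had 4.31, 2.59, 17.6 and 8.03 CPM in FAPI hearts against 7.98, 28.5, 23.9 and 82 CPM in FapKO hearts. FapKO replicate 4 was the highest and FapKO replicate 1 lay among the FAPI hearts (−2.12, SE 0.58, adjusted p = 0.0248). Adipoq did not pass without FAPI replicate 1 (adjusted p = 0.0766), FAPI replicate 2 (0.0561) or FapKO replicate 4 (0.105).

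Placed beside MI hearts, most called genes had a common order of group means. Of the 1203 genes higher in FAPI than in FapKO hearts, the MI mean lay beyond FAPI for 936, between both groups for 248 and beyond FapKO for 19. Of the 1044 lower genes, the MI mean lay beyond FAPI for 816, between for 190 and beyond FapKO for 38. The MI mean thus lay beyond FAPI for 77.8% of the higher and 78.2% of the lower genes. Among all genes tested with a difference of that sign, the shares were 65% and 60.4%. FAPI was the nearer group to MI for 93.1% of the higher and 91.1% of the lower genes, against 75.8% and 68.8% of all genes tested with a difference of that sign. FAPI and FapKO hearts were each set beside the same MI hearts here, so these shares are a description. Hspa1a, Spp1, Fos, Myc and Irgm1 were among the 248 genes whose MI mean lay between FAPI and FapKO.

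The chromosome around Fap was examined, because a knockout made in another strain can keep a stretch of that strain beside the gene. Of 82 genes tested within 10 Mb of Fap 15 passed (18.3%, against 13.2% of all genes), 6 higher and 9 lower. Within 2 Mb 3 of 9 passed, namely Rbms1 (0.36), Ifih1 (1.15) and Fign (−0.88), named after their values were seen. Rbms1 did not pass without FAPI replicate 3 or FapKO replicate 3 (adjusted p = 0.0592 and 0.0544). Ifih1 starts 0.07 Mb from Fap and is itself on the interferon response list, with MI hearts at 15.8 CPM and sham hearts at 6.32 CPM. The part of a linked stretch in these calls was not tested.

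**Figure D5:**
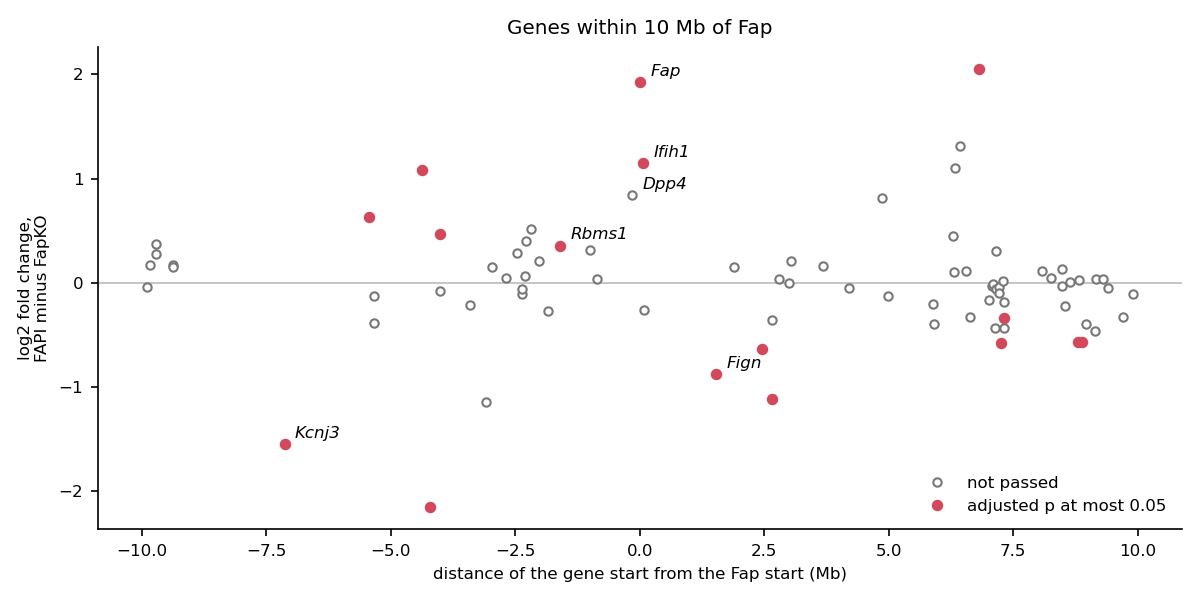
Log2 fold change of FAPI over FapKO hearts (y axis) of genes within 10 Mb of Fap against the distance of their start from the Fap start in Mb (x axis). Filled points passed an adjusted p of 0.05; Fap stands at 1.93 and 15 of the 82 other genes passed, on both sides of 0.

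Some genes elsewhere also separated FAPI from FapKO hearts widely. Gm14719, a processed pseudogene on chromosome X chosen after its values were seen, averaged 0.854 ± 0.347 CPM in FAPI hearts and 34.5 ± 12 CPM in FapKO hearts (SD, n = 4 each; −5.33, SE 0.37, adjusted p = 2.57e-07). MI hearts averaged 0.741 CPM and sham hearts 1.13 CPM, so the FapKO hearts stood apart from all WT hearts. Reads of a processed pseudogene can come from its parent gene, which cannot be told apart in counts per gene. Of 8 tested genes known to vary between laboratory strains 2 passed (25%, against 13.2% of all genes), both lower. One more was higher without FAPI replicate 3 or FAPI replicate 4. So short a list gives only a rough share. Wdfy1 had 11.1, 9.35, 13 and 11.1 CPM in FAPI hearts against 20.8, 24.2, 21.4 and 40.6 CPM in FapKO hearts (−1.26, SE 0.18, adjusted p = 2.57e-04). Nnt, a mitochondrial transhydrogenase gene, had 2.79, 4.09, 3.44 and 3.70 CPM in FAPI hearts against 7.73, 5.59, 6.60 and 4.64 CPM in FapKO hearts (−0.81, SE 0.20, adjusted p = 0.0129). For both genes the mean of the sham hearts, which are WT, was above that of the FapKO hearts, at 31.3 and 7.43 CPM.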

How the data were processed

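RNA-seq libraries of 15 mouse hearts were read as whole counts per gene, as the authors deposited them. Per the submitters' processing notes, STAR mapped the reads to mm10 and HTSeq made the counts (versions not given in the sources used here). Per the labels' protocols, libraries came from total RNA by a modified Smart-seq2 method with molecular barcodes, and whether counts are of molecules or reads is not stated.

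Of 53801 gene identifiers 17064 passed edgeR's filterByExpr. All 15 hearts entered 1 fit with a coefficient per group (edgeR 4.0.16, R 4.3.3, TMM scaling, quasi-likelihood F test, Benjamini-Hochberg adjustment over all genes at 0.05). The SE of a log2 fold change is its absolute value divided by the square root of F. List levels are mean log2 CPM with a prior count of 2. Alternatives used limma 3.58.1 and DESeq2 1.42.0. Figures used Python 3.11.15 and matplotlib 3.10.9. The test was tested on simulated data.

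Named genes are study genes, the up to 12 higher and 12 lower called genes with the largest change at a mean of at least 10 CPM in either group without overlap and without a predicted-gene name (Gm or Rik), and of each list the 4 members with the smallest p and the first 2. The members, lists and rules were chosen with earlier results of these data known. Gene lists were written from general knowledge; 1 member of the interferon response list is counted but not reported by itself. No 2 hearts were copies of each other. Read depth, at 24519009 counts or more in the 8 hearts, sets the counting error of low genes.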

Additional observations from a re-analysis of the deposited data

Results flagged for a closer look

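In 7 of 212 groups of 4 hearts examined (95 genes and 9 lists), 1 heart stood apart from the other 3 by Dixon's criterion, which chance meets in about 1 in 20 groups. Among FAPI hearts, replicate 3 stood high for Slfn1 (14.9 CPM) and replicate 4 stood low for Irgm1 (28.6 CPM). Among FapKO hearts, replicate 1 stood high for Ifi213 (7.30 CPM) and replicate 3 stood high for Pkd2l2 (20.3 CPM). FapKO replicate 4 stood high for Dpp4 (1.75 CPM), Postn (663 CPM) and Wdfy1 (40.6 CPM).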

How the results depend on the processing

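The number of genes called was 2247 and became 61 with the macrophage marker covariate, 831 with the replicate block in a fit of the 8 hearts and 552 with an added minimum of 1 for the absolute log2 fold change. It ran from 1125 to 2920 without each heart in turn. Genes called within 10 Mb of Fap numbered 15, and 1, 8 and 6 under the same settings in that order, and 11 to 18 without each heart. List members called numbered 245, and 28, 137 and 83 in that order, and 164 to 318 without each heart. The fit of the 8 hearts without the block gave 2141, 13 and 250 for these 3 counts. The labels do not say whether hearts with the same replicate number belong together. Correlations of deviations from the group means between same-numbered FAPI and FapKO hearts were −0.017, 0.092, −0.198 and 0.004. With so few hearts, these values do not decide whether the numbers pair them. Fap kept its direction and call in all 20 alternatives (1.62 to 2.08), and ran from 1.79 to 2.03 without each heart. Nppb ran from 0.52 to 1.72 and passed in 2 of 20, with no filter on low counts (1.19) and without FapKO replicate 4 (0.94 to 1.72 without each heart). The mitochondrial share differed by −2.08 to −1.29 percentage points without each heart, with an exact p of 0.0286 without FAPI replicate 4. Of 94 named genes, the direction turned for Npr3 (−0.030), Cd68 (−0.30), Ccr2 (−0.61), Spp1 (−0.10) and Myh6 (0.049) with the macrophage marker covariate, which ended 62 calls. Cd68 and Ccr2 are themselves among the markers in that covariate. The direction also turned without a heart for Npr3 (−0.089 to 0.23; without FAPI replicate 4 or FapKO replicate 4), Tnnt2 (−0.12 to 0.20; FAPI replicate 4) and Pecam1 (−0.029 to 0.063; FAPI replicate 2 or FapKO replicate 3). The replicate block ended 15 calls of named genes (1 in the 8 hearts without it), and total-count scaling, limma-voom and the filter of 1 CPM ended none. Besides Nppb, calls were gained by Dpp4 (0.85 with no filter on low counts, 1.01 and 1.14 without FAPI replicate 2 or FapKO replicate 4), Col1a1 and Col3a1 (without FAPI replicate 4, Col3a1 also with DESeq2), Myh6 (no filter) and Tnnt2 (cardiomyocyte marker covariate, which includes Tnnt2). The cause of these changes was not tested.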

Other observations

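Of 18 circadian clock genes 3 rose and 1 fell (22.2% called, against 13.2% of all genes), and the median was 0.01 on the log2 scale. None passed with the macrophage marker covariate. Per1, a core repressor gene of the clock, had 10.3, 10.1, 11 and 12.6 CPM in FAPI hearts against 7.86, 6.64, 7.00 and 7.53 CPM in FapKO hearts (0.60, SE 0.11, adjusted p = 0.00288). Per2 and Nfil3, a repressor of clock targets, rose by 0.71 and by 0.78. Hlf, an activator of such targets, had 3.31, 3.40, 2.42 and 3.09 CPM in FAPI hearts against 5.54, 4.74, 5.45 and 5.11 CPM in FapKO hearts (−0.77, SE 0.16, adjusted p = 0.00592). No heart overlapped for Per1 or Hlf, and the labels do not give the hour of collection.

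Of 20 glucose and glycolysis genes 2 rose and 2 fell (20% called, against 13.2% of all genes). Without FAPI replicate 4 the number lower was 4, and without any 1 of the other hearts each number was 1 or 2. Slc2a1, the basal glucose transporter gene, had 15.5, 17.9, 14.9 and 18.1 CPM in FAPI hearts against 9.32, 9.06, 10.5 and 12.5 CPM in FapKO hearts (0.68, SE 0.15, adjusted p = 0.00944). Gpx1, a glutathione peroxidase gene, rose by 0.52 and Sod1, the cytosolic superoxide dismutase gene, fell by 0.49, the 2 calls among 22 antioxidant genes (9.09%), of which 4 were lower without FAPI replicate 4 and 2 without FapKO replicate 2. Kcnj3, a potassium channel gene of atrial muscle that lies 7.14 Mb from Fap, had 2.24, 3.51, 2.93 and 3.35 CPM in FAPI hearts against 10.3, 6.81, 10.2 and 7.99 CPM in FapKO hearts (−1.55, SE 0.20, adjusted p = 1.47e-04). With all hearts, none of 25 cell cycle genes, 6 lymphatic endothelial and 10 epicardial markers passed. Leaving out 1 heart gave 1 lower cell cycle gene (FAPI replicate 2) and, among lymphatic markers, 1 higher and 1 lower (FAPI replicate 4), 1 lower (FapKO replicate 2) or 1 higher (FapKO replicate 4).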
